A study of Rattus norvegicus with 40 samples.

Results

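Conjugation enzymes attach a water-soluble group to hormones, bilirubin, bile acids and drugs, so that liver can pass them into bile and urine. The genes described here were chosen by name, as every gene whose symbol in the platform annotation starts with Ugt1, Ugt2, Ugt3, Sult, Gsta, Gstk, Gstm, Gsto, Gstp, Gstt, Gstz or Mgst. That gave 40 of 13490 genes measured: 7 UDP-glucuronosyltransferases (Ugt), 12 sulfotransferases (Sult), 18 glutathione transferases (Gst) of the cytosol, mitochondria and peroxisomes, and 3 membrane-bound ones (Mgst). No Ugt3 gene was among them. Another 14 genes with such names were read only by 8 probe sets that the annotation gives to several genes, and those probe sets are described as shared, without assigning them to 1 gene. Where a gene had several probe sets, the one brightest on average across the 40 arrays was used, as for 3 of the 40 genes (Gstt2, Sult2b1 and Ugt2b).

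Glucuronosyltransferases sit in the endoplasmic reticulum and take glucuronic acid from UDP-glucuronic acid. The Ugt1a genes are variants of 1 locus, each with its own opening exon joined to closing exons that all of them share, while the Ugt2 genes are separate neighbours. Sulfotransferases work in the cytosol with the donor PAPS, and glutathione transferases join glutathione to electrophiles. Textbook regulators of these families in liver are the receptors CAR, PXR, AhR and PPAR-alpha, the factor Nrf2, and the liver factors HNF1 and HNF4.

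The livers came from adult male Sprague Dawley SD:CD rats, in 4 groups of 10. The groups received the vehicle alone or GW7647, a synthetic agonist of PPAR-alpha, at 10, 1 or 0.1 mg/kg by gavage once a day. Dosing lasted 4 days, and the rats' livers were collected 24 h after the final one. Each liver's total RNA was run on its own Affymetrix array, giving 40 arrays, and the comparisons ask how each dose differs from vehicle and from the dose below it.

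Values are log2 signals, so a difference of 1 is a doubling, and levels of different probe sets are not compared with each other. On the deposited scale the whole array moved with dose: the median change of all genes against vehicle was -0.03, 0.16 and 0.26 at the 3 doses. A gene is therefore said to rise or fall, or is called, only if its adjusted p was under 0.05 over all 13490 genes both in the values as deposited and once all arrays had been quantile normalized, in the same direction (limma, Benjamini-Hochberg adjustment). Changes are given on the deposited scale unless the quantile-normalized one is named. As a check of treatment, Cyp4a1, a fatty acid hydroxylase and classical PPAR-alpha target, averaged 9.50, 10.40, 12.44 and 12.76 from vehicle to 10 mg/kg. Acot1, an acyl-CoA thioesterase, averaged 1.65, 1.82, 10.71 and 11.56.

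The conjugation enzymes moved in both directions. At 0.1 mg/kg none of the 40 rose or fell, with 4 of them at an unadjusted limma p under 0.05 as deposited and 3 once quantile normalized. Over all genes, 0.0815% rose and 0.00741% fell at that dose, and the share of all genes at the unadjusted threshold was not counted. At 1 mg/kg 2 rose (Gstm7 and Mgst3) and 2 fell (Sult1a1 and the dim Ugt2a1), against 11.1% and 3.37% of all genes. At 10 mg/kg 6 rose and 7 fell, which is 15% and 17.5% of the 40, against 20.4% and 7.71% of all genes. The risers were Gstm5, Gsta3, Sult2a6, Gstm7, Sult6b2 and Sult2a1. The fallers were Ugt2b1, Gstp3, Sult1a1, Ugt2b35, Sult5a1, Ugt2a1 and Gstm1. Of the 40, 26 had a group mean of log2 5 or more, and among those 4 rose and 5 fell at 10 mg/kg, against 26.1% and 9.45% of the 5840 such genes. Gstm5 and Gsta3, among those 4, reached log2 5 only in dosed groups, so that their rise itself brought them into this count.

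The split between rises and falls depended on the scale. On the deposited scale alone 12 genes were higher and 2 lower at 1 mg/kg, where 38.3% and 3.37% of all genes were, and 18 were higher and 7 lower at 10 mg/kg, where 56.5% and 7.71% were. After quantile normalization alone 2 were higher and 9 lower at 1 mg/kg, where 11.1% and 12.1% of all genes were, and 6 were higher and 14 lower at 10 mg/kg, where 20.4% and 24.4% were. The median change of the 40 genes at 10 mg/kg was 0.18 on the deposited scale, below the 0.26 of all genes, and -0.11 after quantile normalization, where all genes had -0.02.

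**Figure D1:**
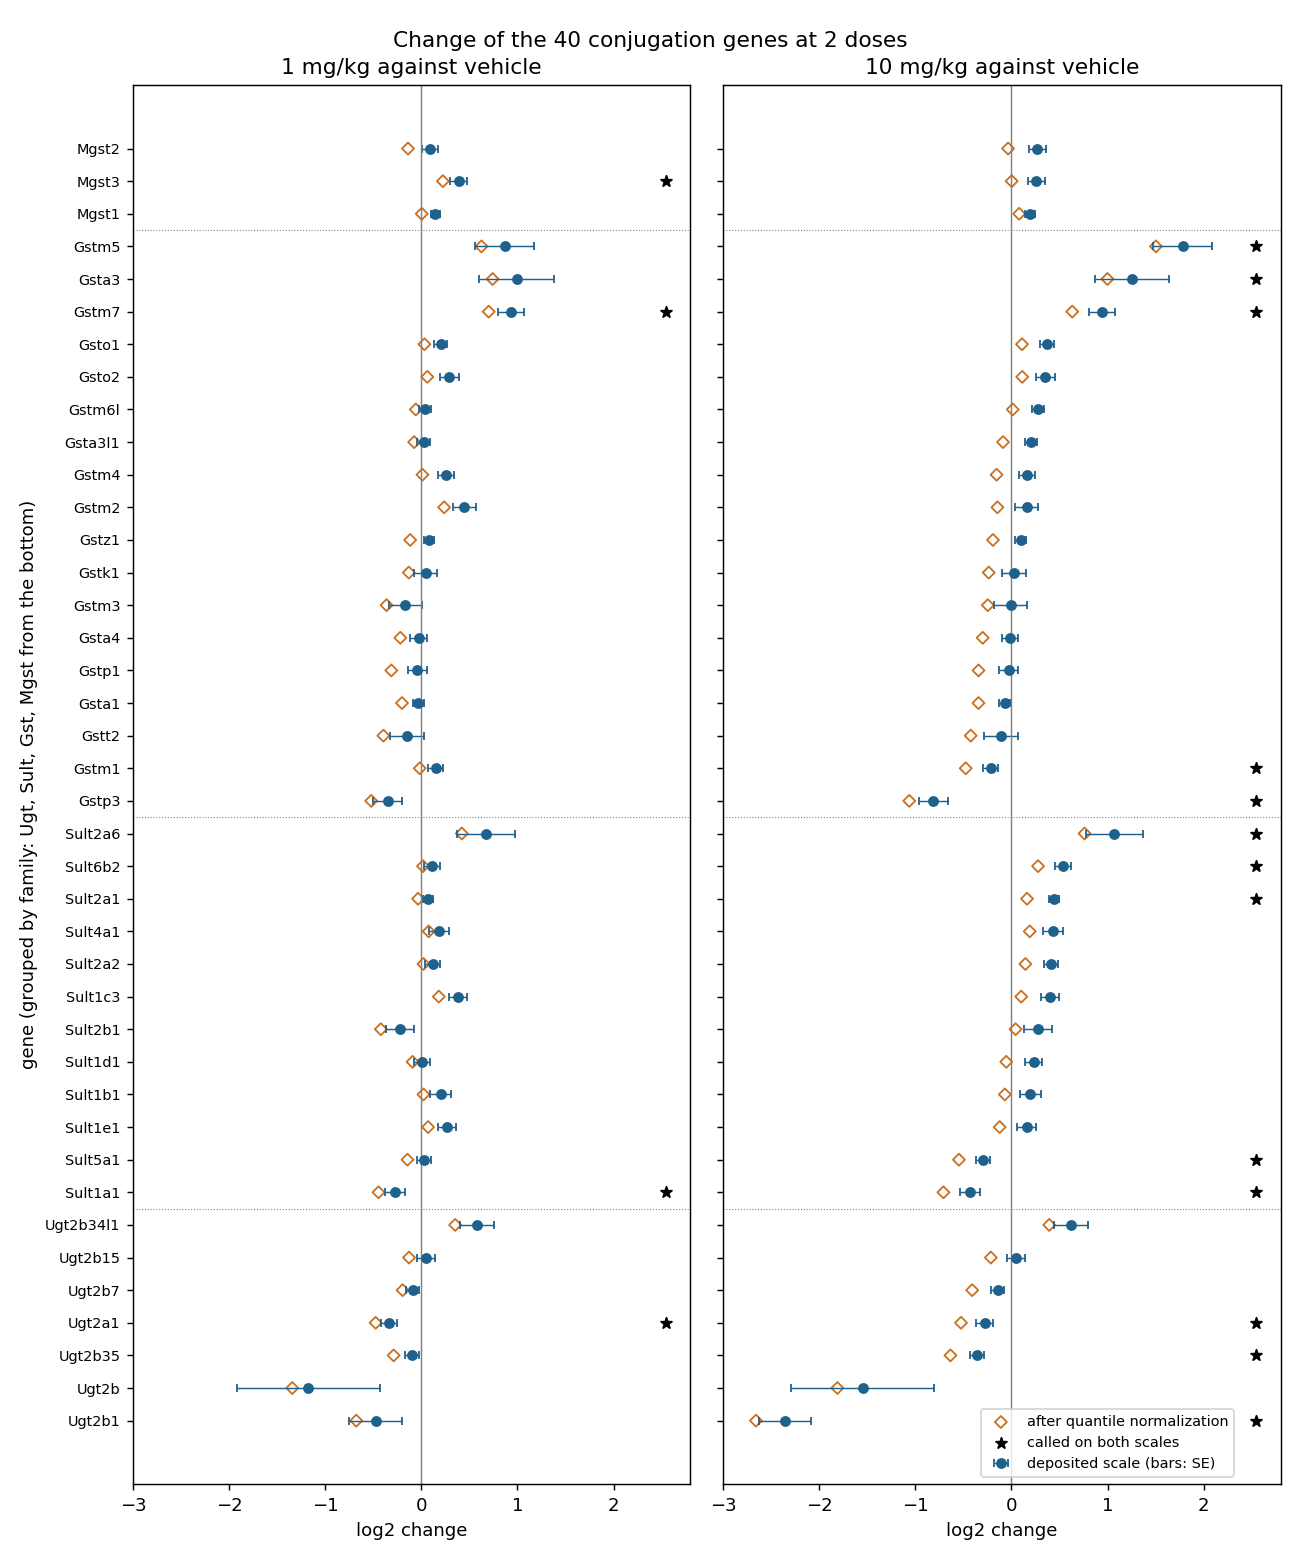
Log2 change of each of the 40 genes at 1 and 10 mg/kg against vehicle (10 arrays per group), on the deposited scale with its standard error and after quantile normalization, with a star where a gene was called on both scales. Ugt2b1 lies farthest to the left at 10 mg/kg with -2.36, and Gstm5 farthest to the right with 1.78.

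The Ugt1a genes, which include the bilirubin enzyme Ugt1a1, rose with dose on both probe sets that read them. Each of the 2 probe sets is given to Ugt1a1, Ugt1a2, Ugt1a3, Ugt1a5, Ugt1a6, Ugt1a7c, Ugt1a8 and Ugt1a9, so the values are those of the locus and not of 1 enzyme. On the brighter one, vehicle arrays lay at 10.28 to 10.69 with a median of 10.58, and the 0.1 mg/kg arrays at 10.45 to 10.74 with a median of 10.62. The 1 mg/kg arrays lay at 10.93 to 11.46 with a median of 11.18, and the 10 mg/kg arrays at 11.46 to 11.92 with a median of 11.72. All 10 arrays at 1 mg/kg and all 10 at 10 mg/kg were above the highest vehicle array on either scale, as for 0.899% and 2.72% of all probe sets at those doses, while the 0.1 mg/kg arrays overlapped with vehicle.

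Group means on that probe set were 10.53 ± 0.14, 10.60 ± 0.11, 11.19 ± 0.18 and 11.70 ± 0.14 (SD, n = 10 each). The rise was 0.66 ± 0.067 (SE) at 1 mg/kg and 1.16 ± 0.067 at 10 mg/kg, or 2.24-fold (limma adjusted p = 9.65e-10 and 1.08e-17 over 31042 probe sets). After quantile normalization the rises were 0.47 and 0.91. The other probe set averaged 9.93 ± 0.18, 9.92 ± 0.15, 10.54 ± 0.26 and 11.14 ± 0.26, and rose by 0.61 ± 0.095 at 1 mg/kg and 1.22 ± 0.095 at 10 mg/kg (limma adjusted p = 3.9e-06 and 1.02e-13). The step from 0.1 to 1 mg/kg and that from 1 to 10 mg/kg were each called on both probe sets, with rises between 0.51 and 0.62. Over all probe sets, the share that rose was 9.13% at 1 mg/kg, 18.2% at 10 mg/kg, 9.77% in the lower step and 8.18% in the upper step. In bulk liver RNA, here and below, fewer or more cells of a type and less or more RNA per cell cannot be told apart.

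Ugt1a1 is shown because its locus rose at both upper doses. The sequence is the 250 bases before its start in RefSeq's GRCr8 (chr9:96248893-96249142, plus strand), with the half-site of HNF1 (GTTAAT, here on the reverse strand) in capitals, 63 bases before the start.
Ugt1a1: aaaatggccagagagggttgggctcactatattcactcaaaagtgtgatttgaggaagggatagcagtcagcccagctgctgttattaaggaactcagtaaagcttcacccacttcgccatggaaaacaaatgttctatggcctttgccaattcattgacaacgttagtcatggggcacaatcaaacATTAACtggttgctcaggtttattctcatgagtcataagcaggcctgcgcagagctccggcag
That half-site was found in 7 of the 47 promoters of these families held in the RefSeq table (Ugt1a1, Ugt1a2, Ugt1a3, Ugt1a6, Gsta3, Sult2a2 and Sult2a6), or 14.9%, against 6.45% of 33469 promoters of the same length. These matches describe letters, not bound sites.

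Ugt2b1, an enzyme of steroid and drug glucuronidation, showed the largest fall of any of the 40 genes. Vehicle arrays lay at 9.46 to 10.43 with a median of 9.88, the 0.1 mg/kg arrays at 8.99 to 10.42 with a median of 9.58, the 1 mg/kg arrays at 8.17 to 10.48 with a median of 9.28 and the 10 mg/kg arrays at 6.08 to 9.01 with a median of 7.73. All 10 arrays at 10 mg/kg were below the lowest vehicle array, on either scale, which held for 0.956% of all genes, whereas the lower doses overlapped with vehicle. The means were 9.88 ± 0.36, 9.64 ± 0.43, 9.41 ± 0.69 and 7.52 ± 0.93. Ugt2b1 fell by 2.36 ± 0.27 (SE) at 10 mg/kg, to a level 5.13 times lower (limma adjusted p = 1.77e-09, quantile-normalized -2.66). At 1 mg/kg the change was -0.48 ± 0.27 (adjusted p = 0.157 with limma), so most of the fall came in the step from 1 to 10 mg/kg, where it was 1.88 ± 0.27 (limma adjusted p = 1.74e-06).

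The 250 bases before Ugt2b1 (chr14:21378632-21378881, plus strand, RefSeq GRCr8) are shown as those of the strongest faller. They held none of the 7 motifs searched, which says only that these letters are not in this window.
Ugt2b1: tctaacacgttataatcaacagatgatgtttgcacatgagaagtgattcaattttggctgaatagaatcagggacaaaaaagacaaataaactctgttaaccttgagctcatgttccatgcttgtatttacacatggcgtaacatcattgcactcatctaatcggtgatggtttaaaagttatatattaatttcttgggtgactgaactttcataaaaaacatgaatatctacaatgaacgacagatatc

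Ugt2b35, another member of this subfamily, fell less and also mostly in the upper step. Its arrays lay at 10.75 to 11.24 with a median of 11.13 in vehicle, 10.82 to 11.30 with a median of 10.99 at 0.1 mg/kg, 10.85 to 11.37 with a median of 10.95 at 1 mg/kg and 10.50 to 10.95 with a median of 10.75 at 10 mg/kg. The groups overlapped, with 5 of 10 arrays at 10 mg/kg below the lowest vehicle array. Means were 11.10 ± 0.15, 11.01 ± 0.14, 11.00 ± 0.17 and 10.74 ± 0.16. The fall at 10 mg/kg was -0.36 ± 0.072 (limma adjusted p = 4.27e-05) and that of the upper step -0.27 ± 0.072 (limma adjusted p = 0.00444). The call of that step was lost with arrays shifted to the hybridisation controls (-0.33, limma adjusted p = 0.0673).

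**Figure D2:**
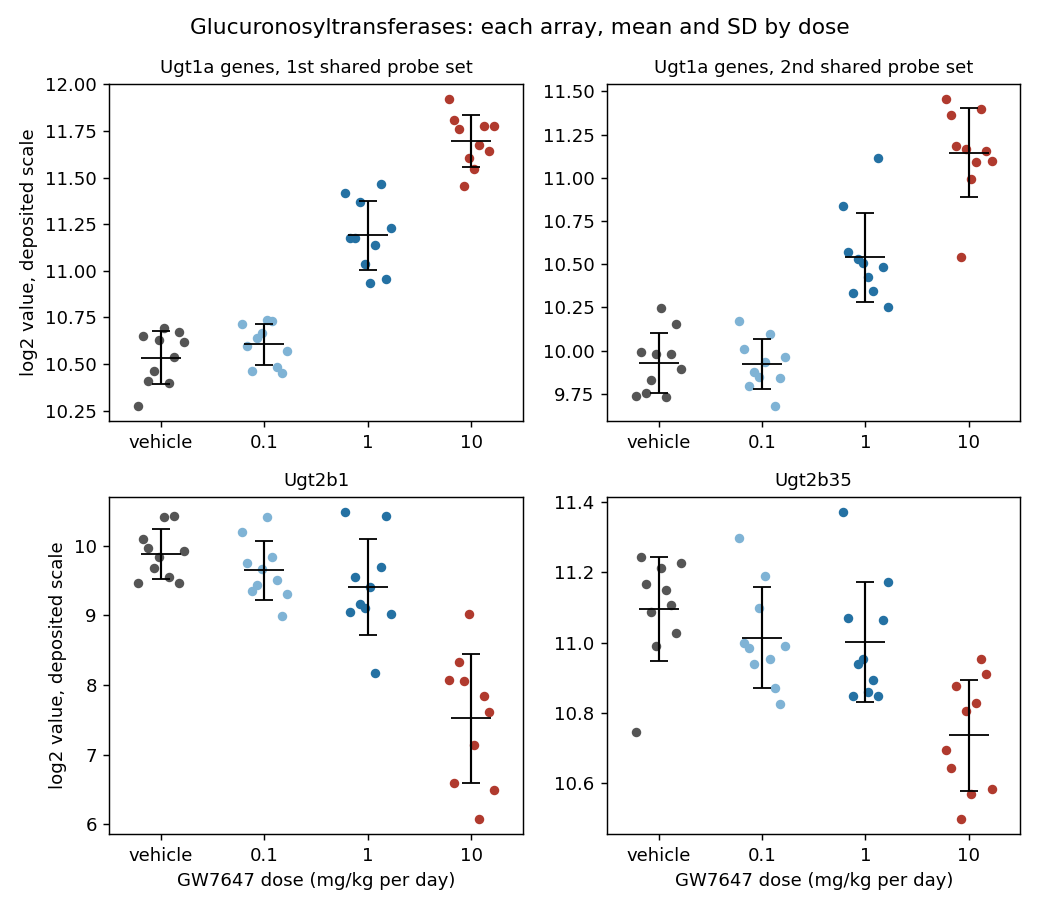
Log2 value of every array (points) with mean and SD (bars) by dose for both shared Ugt1a probe sets, Ugt2b1 and Ugt2b35, 10 arrays per group. Both Ugt1a panels climb from 0.1 mg/kg on, and Ugt2b1 drops at 10 mg/kg, where its highest array (9.01) is below the lowest vehicle array (9.46).

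The gene listed as Ugt2b was read by 2 probe sets, and 2 of the 40 arrays stood apart on both. The array of rat 8 at 1 mg/kg was at 2.98 and 1.94, and that of rat 7 at 10 mg/kg at 2.91 and 2.27, whereas the other 38 arrays lay between 10.01 and 11.82 on the brighter probe set. Of the 39 other genes, 29 and 30 were within the range of their own group's other arrays. Mgst1 was below that range on both arrays, and Ugt2b1 was so on the 10 mg/kg array, at 6.08 against 6.50 to 9.01 on the other arrays of that dose. No cause of these 2 readings was tested.

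Counting all arrays, the brighter Ugt2b probe set changed by -1.55 ± 0.74 at 10 mg/kg, which was not called (limma adjusted p = 0.066, quantile-normalized adjusted p = 0.0435). The other probe set fell by 2.06 ± 0.55 (limma adjusted p = 0.00131 over all probe sets, of which 5.86% fell). Without both arrays, an alternative added after the values were seen, the brighter probe set averaged 11.27, 11.06, 10.89 and 10.48 from vehicle to 10 mg/kg. The change was then -0.38 at 1 mg/kg (limma adjusted p = 0.0201) and -0.79 at 10 mg/kg (limma adjusted p = 3.91e-06), and both were called. Leaving out only rat 7 at 10 mg/kg also gave -0.79, with an adjusted p of 0.221 in limma, and leaving out only rat 8 at 1 mg/kg left -1.55 and made the change at 10 mg/kg a called one.

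**Figure D3:**
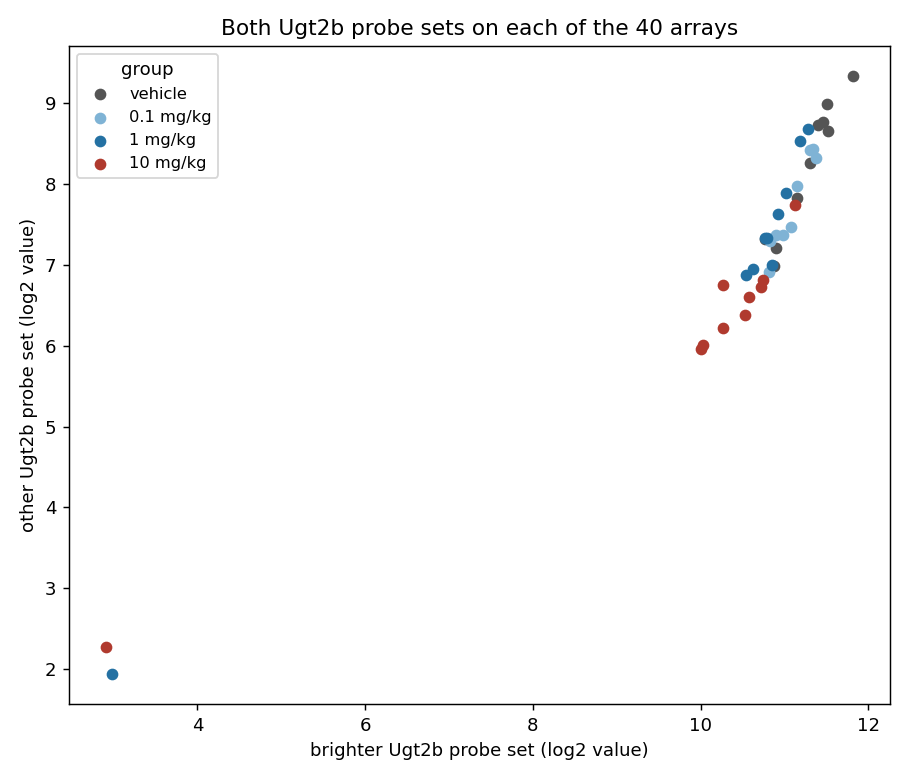
Log2 values of the brighter Ugt2b probe set (horizontal) and the other one (vertical) on each of the 40 arrays, coloured by dose group. The arrays at 2.98 and 1.94 and at 2.91 and 2.27 sit in the lower left, away from the other 38.

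Counted over the single-gene probe sets, 0 of 7 glucuronosyltransferases rose at 10 mg/kg and 3 fell, where 20.4% and 7.71% of all genes did. Ugt2b15, a steroid-conjugating enzyme, averaged 10.23 ± 0.30 in vehicle and 10.27 ± 0.06 at 10 mg/kg, a change of 0.046 ± 0.095 that was not called (limma adjusted p = 0.685). The others were below log2 5 in every group. Of these, Ugt2a1 fell by 0.34 at 1 mg/kg and 0.28 at 10 mg/kg (limma adjusted p = 0.00163 and 0.00483), from a vehicle mean of 3.03, close to the array median of 2.47. Ugt2b34l1 changed by 0.62 at 10 mg/kg and Ugt2b7 by -0.14, and neither was called. No fold is given for genes with a vehicle level under log2 5, here or below.

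Among the cytosolic and mitochondrial glutathione transferases, 3 of 18 rose at 10 mg/kg and 2 fell. These are 16.7% and 11.1%, near the 20.4% and 7.71% of all genes. Gstm5, of the mu class, rose most of all 40 genes, starting from a dim vehicle level under log2 5. Single arrays lay at 3.01 to 4.74 with a median of 3.65 in vehicle, 2.66 to 5.32 with a median of 3.84 at 0.1 mg/kg, 3.19 to 5.44 with a median of 4.55 at 1 mg/kg and 4.63 to 6.58 with a median of 5.41 at 10 mg/kg. Of the 10 arrays at 10 mg/kg, 8 were above the highest vehicle array. The means were 3.67 ± 0.63, 3.87 ± 0.89, 4.54 ± 0.75 and 5.45 ± 0.60. The rise at 10 mg/kg was 1.78 ± 0.31 on the log2 scale (limma adjusted p = 5.2e-06, quantile-normalized 1.50). At 1 mg/kg the change was 0.87 ± 0.31, past the threshold on the deposited scale (adjusted p = 0.0224, limma) but not after quantile normalization (adjusted p = 0.141, limma).

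Gstm7, also of the mu class, had reached its high level at 1 mg/kg. Its arrays lay at 6.64 to 7.45 with a median of 7.23 in vehicle, 6.75 to 7.91 with a median of 7.64 at 0.1 mg/kg, 7.81 to 8.36 with a median of 8.18 at 1 mg/kg and 7.56 to 8.76 with a median of 8.13 at 10 mg/kg. All 10 arrays at 1 mg/kg were above the highest vehicle array on either scale, as for 1.3% of all genes. Means were 7.18 ± 0.27, 7.50 ± 0.38, 8.11 ± 0.19 and 8.12 ± 0.36. The rise was 0.94 ± 0.13 at 1 mg/kg and 0.94 ± 0.13 at 10 mg/kg (limma adjusted p = 5.35e-07 and 1.27e-07), 1.91-fold and 1.92-fold. The upper step was 0.0085 ± 0.13 (limma adjusted p = 0.97). At 0.1 mg/kg the change was 0.32 ± 0.13, with 7 of 10 arrays above the highest vehicle array, and was not called (limma adjusted p = 0.9998).

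Gsta3, an alpha-class enzyme, rose also from a dim vehicle level and with a wide spread between rats. Single arrays lay at 2.83 to 5.52 with a median of 3.89 in vehicle, 2.93 to 5.95 with a median of 3.55 at 0.1 mg/kg, 4.05 to 6.50 with a median of 4.93 at 1 mg/kg and 4.34 to 7.05 with a median of 5.11 at 10 mg/kg, so the groups overlapped widely. The means were 4.08 ± 1.04, 3.88 ± 0.92, 5.07 ± 0.70 and 5.33 ± 0.94. The rise at 10 mg/kg was 1.25 ± 0.39 (limma adjusted p = 0.0049, quantile-normalized 1.00 with adjusted p = 0.0283). The call was lost without vehicle array 1, 6 or 10 or without array 3, 8 or 10 at 10 mg/kg, where the change was 1.06 to 1.16.

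The promoters of these 3 risers are shown because each held the core of the antioxidant response element, the site that Nrf2 binds (TGACNNNGC on either strand), in capitals below. It was found in 5 of the 47 promoters (Gsta3, Gstm5, Gstm7, Gstp1 and Gstz1), or 10.6%, against 10.1% of all 33469, a like share. Gstp1 and Gstz1 were not called at any dose. The matches lie 113 and 53 bases before the start of Gstm5 (chr2:198219519-198219768, plus strand), 14 before Gstm7 (chr2:198260320-198260569, minus strand) and 17 before Gsta3 (chr9:31154739-31154988, plus strand), all in RefSeq's GRCr8.
Gstm5: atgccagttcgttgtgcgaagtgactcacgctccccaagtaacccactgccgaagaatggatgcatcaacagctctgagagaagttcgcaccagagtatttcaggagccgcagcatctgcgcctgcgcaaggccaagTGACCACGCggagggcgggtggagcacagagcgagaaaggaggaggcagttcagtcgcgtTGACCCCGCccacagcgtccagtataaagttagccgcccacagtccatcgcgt
Gstm7: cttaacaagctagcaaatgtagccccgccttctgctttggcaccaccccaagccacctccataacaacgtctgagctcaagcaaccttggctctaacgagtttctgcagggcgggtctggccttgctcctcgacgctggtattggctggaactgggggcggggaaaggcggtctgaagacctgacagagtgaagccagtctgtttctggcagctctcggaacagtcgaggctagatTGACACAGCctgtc
Gsta3: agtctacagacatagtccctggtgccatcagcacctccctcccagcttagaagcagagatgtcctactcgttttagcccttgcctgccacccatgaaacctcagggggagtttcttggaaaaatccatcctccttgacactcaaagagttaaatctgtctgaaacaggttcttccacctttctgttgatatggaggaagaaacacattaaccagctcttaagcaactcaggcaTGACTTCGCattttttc
Of the other motifs, the xenobiotic response element core that AhR binds (GCGTG) was in 13 of 47 promoters, or 27.7%, against 25.9% of all, and the nuclear receptor half-site (AGGTCA) in 3, against 14.1%. The direct repeat of that half-site with 1 spacer base, which PPAR-alpha binds, was in 0 of 47 and in 0.0508% of all promoters. The HNF1 palindrome and the HNF4 core (CAAAGTCCA) were also in 0 of 47, against 0.0448% and 0.338%. Short motifs overlap longer ones that contain them, and all were searched on both strands.

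Gstp3, of the pi class, fell. The arrays lay at 10.61 to 12.04 with a median of 11.57 in vehicle, 11.00 to 11.75 with a median of 11.41 at 0.1 mg/kg, 10.64 to 11.74 with a median of 11.19 at 1 mg/kg and 10.13 to 11.09 with a median of 10.85 at 10 mg/kg. The lowest vehicle array, that of rat 10, lay inside the range of the 10 mg/kg group, and every other vehicle array was above all arrays at 10 mg/kg. The means were 11.51 ± 0.39, 11.40 ± 0.23, 11.16 ± 0.36 and 10.70 ± 0.37. The fall at 10 mg/kg was -0.81 ± 0.15 (limma adjusted p = 1.08e-05), or 1.76 times lower, and that of the step from 1 to 10 mg/kg -0.46 ± 0.15 (limma adjusted p = 0.0156). With only arrays 1 to 4 for 1 mg/kg, that step was -0.28 and not called (limma adjusted p = 0.326). Gstp1, the pi-class gene used as a marker of altered foci in rat liver, averaged 6.48 ± 0.13 in vehicle and 6.45 ± 0.16 at 10 mg/kg and was not called (limma adjusted p = 0.82).

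Gstm1 did not follow the dose in 1 direction. Values lay at 11.50 to 11.83 with a median of 11.56 in vehicle, 11.33 to 11.90 with a median of 11.58 at 0.1 mg/kg, 11.45 to 11.95 with a median of 11.72 at 1 mg/kg and 11.14 to 11.78 with a median of 11.30 at 10 mg/kg. Means were 11.59 ± 0.10, 11.58 ± 0.16, 11.74 ± 0.16 and 11.38 ± 0.22. The fall at 10 mg/kg was -0.22 ± 0.076 (limma adjusted p = 0.0131), and that from 1 to 10 mg/kg -0.36 ± 0.076 (limma adjusted p = 0.000337), while the 0.15 at 1 mg/kg was not called.

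The other 13 cytosolic and mitochondrial genes were not called at 10 mg/kg. Gsto1, an omega-class enzyme, changed by 0.37 as deposited and 0.11 once quantile normalized, and Gsto2 by 0.35 and 0.11. Gsta1, Gsta4 and Gstt2 changed by -0.07, -0.018 and -0.11 on the deposited scale, and by -0.34, -0.30 and -0.42 after quantile normalization. Gstz1, the maleylacetoacetate isomerase of tyrosine breakdown, changed by 0.096, and Gstk1, found in mitochondria and peroxisomes, by 0.025. The mu-class genes Gstm2 and Gstm4 changed by 0.16 and 0.17, and Gstm2 had its highest mean at 1 mg/kg (9.50 ± 0.29 against 9.06 ± 0.25 in vehicle). After quantile normalization Gstz1, Gstk1, Gstm2 and Gstm4 had lower means at 10 mg/kg than in vehicle. Gstz1 was at 11.01 against 11.21, Gstk1 at 10.14 against 10.37, Gstm2 at 9.04 against 9.19 and Gstm4 at 7.80 against 7.95. Gsta3l1, Gstm3 and Gstm6l, like Gsto2, were below log2 5 in every group, and their changes were 0.21, -0.009 and 0.28. The shared probe set of Gsta2 and Gsta5 changed by -0.15, and the 2 of Gstt1 and Gstt3 by 0.082 and 0.63, none of them called. After quantile normalization those changes were -0.38, -0.24 and 0.35. The probe set of Gsta2 and Gsta5 was under the threshold on that scale alone (limma adjusted p = 0.000308).

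Of the 3 membrane enzymes, which conjugate glutathione and reduce lipid peroxides, only Mgst3 was called, and only at 1 mg/kg. Its values lay at 9.73 to 10.50 with a median of 10.08 in vehicle, 9.82 to 10.38 with a median of 10.07 at 0.1 mg/kg, 10.04 to 10.69 with a median of 10.55 at 1 mg/kg and 10.15 to 10.51 with a median of 10.38 at 10 mg/kg. Means were 10.09 ± 0.23, 10.09 ± 0.17, 10.47 ± 0.21 and 10.34 ± 0.15. The rise at 1 mg/kg was 0.39 ± 0.087 (limma adjusted p = 0.000441), but 0.22 with an adjusted p of 0.045 in limma after quantile normalization. That call was lost on leaving out any 1 of 15 arrays: vehicle arrays 2, 4, 5, 6, 7, 9 and 10, and arrays 1, 2, 3, 5, 6, 7, 8 and 9 at 1 mg/kg, with changes of 0.35 to 0.40. It was lost too with arrays shifted to the hybridisation controls (0.22), with only the groups compared (0.39), with only arrays 1 to 4 (0.37) or 5 to 10 (0.40) of that dose, with the poly-A covariate (0.36) and without both arrays low in Ugt2b (0.38). At 10 mg/kg Mgst1, Mgst2 and Mgst3 changed by 0.19, 0.27 and 0.26 on the deposited scale and by 0.08, -0.035 and 0.0019 after quantile normalization.

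Of the 12 sulfotransferases, 3 rose and 2 fell at 10 mg/kg, against 20.4% and 7.71% of all genes. Sult2a6, of the group that sulfates hydroxysteroids and bile acids, was the only riser above log2 5. Its values lay at 4.17 to 7.84 with a median of 6.74 in vehicle, 5.78 to 7.39 with a median of 6.28 at 0.1 mg/kg, 6.44 to 7.82 with a median of 7.33 at 1 mg/kg and 6.41 to 8.01 with a median of 7.79 at 10 mg/kg. The vehicle group had the widest range, with rat 10 lowest. Means were 6.51 ± 1.08, 6.57 ± 0.59, 7.18 ± 0.47 and 7.58 ± 0.53. The rise at 10 mg/kg was 1.07 ± 0.30 (limma adjusted p = 0.00225, quantile-normalized 0.76 with adjusted p = 0.0336). It was 0.81 without vehicle array 10, and the call was lost on leaving out that array, vehicle array 2, 6 or 8, or array 1, 5, 6, 8 or 9 at 10 mg/kg, with changes of 0.81 to 1.04. It was also lost with only the 2 groups compared in the model and with the poly-A controls as a covariate, where the change was 1.07 and 1.08.

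Sult1a1, the main phenol sulfotransferase, fell by a small amount. Values lay at 10.60 to 11.24 with a median of 10.83 in vehicle, 10.37 to 11.12 with a median of 10.75 at 0.1 mg/kg, 10.23 to 10.98 with a median of 10.65 at 1 mg/kg and 9.86 to 10.89 with a median of 10.48 at 10 mg/kg. Of the 10 arrays at 10 mg/kg, 7 were below the lowest vehicle array. Means were 10.86 ± 0.19, 10.73 ± 0.21, 10.59 ± 0.26 and 10.43 ± 0.29. The fall was -0.27 ± 0.11 at 1 mg/kg and -0.43 ± 0.11 at 10 mg/kg (limma adjusted p = 0.0373 and 0.000585). The call at 1 mg/kg was lost without vehicle array 4, 6, 8 or 10 or without array 4, 7, 8 or 10 of that dose, with changes of -0.27 to -0.23. With the level of the poly-A controls as a covariate neither dose was called, with -0.16 at 1 mg/kg (limma adjusted p = 0.287) and -0.26 at 10 mg/kg (limma adjusted p = 0.088). The change at 1 mg/kg was also not called with only arrays 1 to 4 of that dose (-0.21) or without both arrays low in Ugt2b (-0.26).

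**Figure D4:**
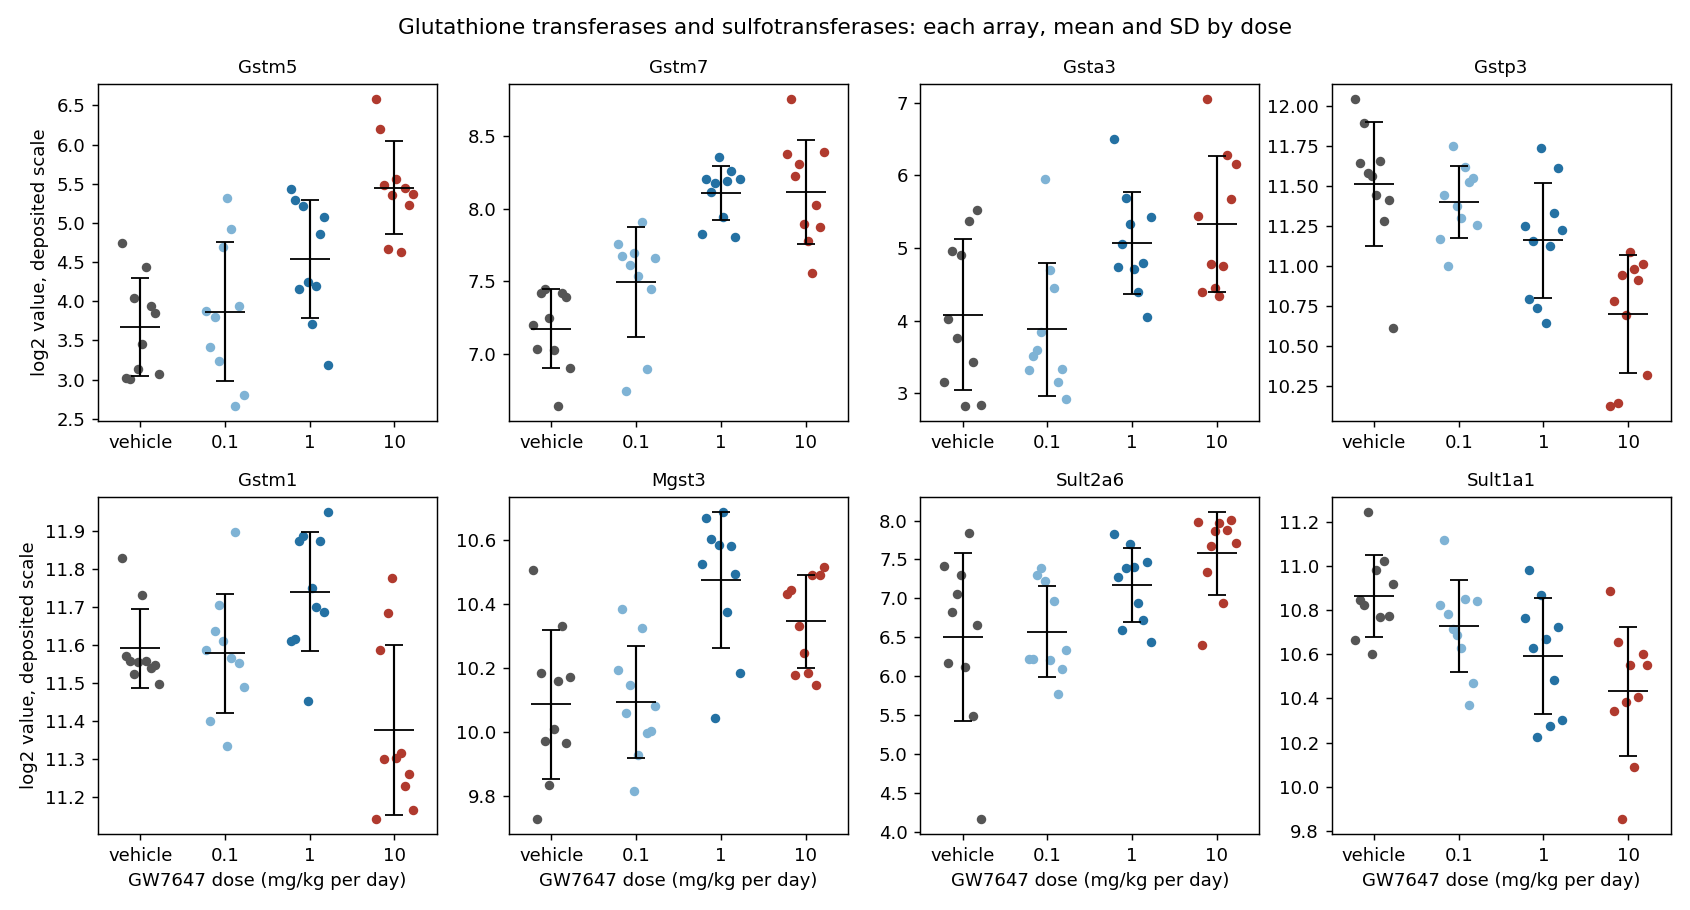
Log2 value of every array (points) with mean and SD (bars) by dose for the called glutathione transferases and sulfotransferases with a group mean of log2 5 or more, 10 arrays per group. Gstm7 is already high at 1 mg/kg (8.11 against 7.18 in vehicle), Gstm5 climbs up to 10 mg/kg (5.45), and Gstp3 and Sult1a1 go down.

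The 3 probe sets shared by Sult1c2 and Sult1c2a did not move together. At 10 mg/kg the brightest of them fell by 0.78 ± 0.16, from 8.09 ± 0.45 to 7.31 ± 0.14 (limma adjusted p = 5.57e-05), and the next by 0.79 ± 0.35 (limma adjusted p = 0.0459). The call of the latter was lost on leaving out vehicle array 6, 7, 8, 9 or 10, or array 3, 4, 6, 8 or 10 at 10 mg/kg, and its change was -0.26 with the poly-A controls as a covariate. It was also not called with a trended and robust prior (limma adjusted p = 0.055) or with only arrays 5 to 10 for 1 mg/kg (limma adjusted p = 0.0537). The dimmest, at 3.53 ± 0.83 in vehicle, changed by 0.54 ± 0.27 and was not called. Over all probe sets 5.86% fell.

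Sult1b1, which sulfates thyroid hormone, Sult1c3 and the estrogen enzyme Sult1e1 changed by 0.20, 0.40 and 0.16 at 10 mg/kg and were not called. After quantile normalization those changes were -0.069, 0.10 and -0.12. The other 7 sulfotransferases were below log2 5 in every group. Among them Sult6b2 and Sult2a1 rose by 0.54 and 0.44 (limma adjusted p = 6.8e-07 and 6.12e-09), but the mean at 10 mg/kg was only 2.23 and 1.91, under the array median of 2.71. Sult5a1 fell by 0.29 from 3.08. Sult1d1, Sult2a2, Sult2b1 and Sult4a1 changed by 0.23, 0.41, 0.28 and 0.44 and were not called.

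Between doses, most calls came in the upper step. From 0.1 to 1 mg/kg 0 of the 40 genes rose and 1 fell, the dim Ugt2a1, against 10.5% and 2.95% of all genes. On the deposited scale alone 14 were higher and 1 lower, where 45.5% and 2.95% of all genes were, and after quantile normalization alone 0 were higher and 7 lower, where 10.5% and 11.5% were. The dim second probe set of Gstt2, not used for these counts, was called higher in that step. It changed by 0.38 (limma adjusted p = 0.000291 over all probe sets, of which 9.77% rose). From 1 to 10 mg/kg 4 of the 40 genes rose and 5 fell, against 8.55% and 5.97% of all genes. The risers were Gstm5, with 0.91 ± 0.31 (limma adjusted p = 0.0218, and 0.0409 after quantile normalization), and the dim Sult2b1, Sult6b2 and Sult2a1. The second Sult2b1 probe set changed by 0.22 as deposited and 0.072 once quantile normalized, and was not called. The call of Gstm5 was lost without any 1 of 11 arrays (3, 5, 6, 7 and 10 at 1 mg/kg, and 1, 2, 3, 6, 8 and 10 at 10 mg/kg), with changes of 0.76 to 0.92. It was also lost with arrays shifted to 1 median (0.80) or to the hybridisation controls (0.85), and with only arrays 1 to 4 for 1 mg/kg, where the step was 0.42 (limma adjusted p = 0.502). The fallers were Ugt2b1, Gstp3, Gstm1, Ugt2b35 and the dim Sult5a1. In that step 8 genes were higher and 5 lower on the deposited scale alone, where 24.2% and 6.34% of all genes were, and 4 were higher and 7 lower after quantile normalization alone, where 8.58% and 9.73% were.

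Over the 4 group means, the genes whose pattern was most like that of Ugt2b1 were Ugt2b35, Gstp3 and the dim Ugt2b7, with Pearson r of 0.99, 0.97 and 0.90. These correlations rest on 4 points that share the dose and the shift of the deposited scale, and they are given as a description.

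The supply of donors for conjugation was followed with gene lists chosen with earlier results of these data known. Of 7 measured genes listed for the supply, transport and release of UDP-sugars and glucuronic acid, 1 rose and 3 fell at 10 mg/kg, where 20.4% and 7.71% of all genes did, and the median change was -0.18 against 0.26 of all genes. Ugp2, which makes the UDP-glucose from which UDP-glucuronic acid is formed, averaged 9.49 ± 0.33, 9.37 ± 0.32, 8.86 ± 0.36 and 7.93 ± 0.24. It fell by 0.63 ± 0.14 at 1 mg/kg and 1.56 ± 0.14 at 10 mg/kg (limma adjusted p = 0.000298 and 1.27e-12), in the same doses at which the Ugt1a probe sets rose. Ugdh, which oxidises UDP-glucose to UDP-glucuronic acid, changed by -0.21 and was not called (limma adjusted p = 0.0639). Pgm1, which interconverts glucose phosphates, rose by 0.50, and the transporter gene Slc35b1 changed by 0.51 without a call, as did Ugt8, which uses UDP-galactose, by 0.25. The other fallers, named after their values were seen like the further genes of the lists below, were the Golgi transporter gene Slc35a3 (-0.58) and Gusb (-0.18), whose enzyme splits glucuronides.

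Among 12 genes for the sulfate donor PAPS and for adding or removing sulfate, 3 rose and 2 fell at 10 mg/kg. These are 25% and 16.7%, against 20.4% and 7.71% of all genes. Papss2, which makes PAPS, fell by 0.76 ± 0.17, from 8.75 ± 0.45 to 7.99 ± 0.37 (limma adjusted p = 0.000228), and the sulfate transporter gene Slc26a1 by 0.46 ± 0.084. The risers were Tpst2 (1.18), which sulfates tyrosines of secreted proteins, Sts (0.83), which takes sulfate off steroids, and Suox (0.58), which turns sulfite into sulfate. Papss1, the other PAPS synthase, changed by 0.48 as deposited and 0.17 once quantile normalized, and was not called.

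Of 21 genes of glutathione, 2 rose and 3 fell at 10 mg/kg, or 9.52% and 14.3%, against 20.4% and 7.71% of all genes. Gclc, the catalytic subunit of the enzyme that limits glutathione synthesis, fell by 0.45 ± 0.12, from 8.42 ± 0.26 to 7.96 ± 0.35 (limma adjusted p = 0.00179). Nat8, which acetylates cysteine conjugates into mercapturic acids, fell by 0.83 ± 0.18, and the dim Chac1, which degrades glutathione, by 0.40. Oplah, the 5-oxoprolinase that returns glutamate from glutathione breakdown, rose by 1.06 ± 0.13 at 10 mg/kg after a change of 0.83 at 1 mg/kg. The aminopeptidase gene Anpep rose by 0.77. Gclm, Gss and Gsr changed by 0.22, 0.43 and 0.13 and were not called.

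**Figure D5:**
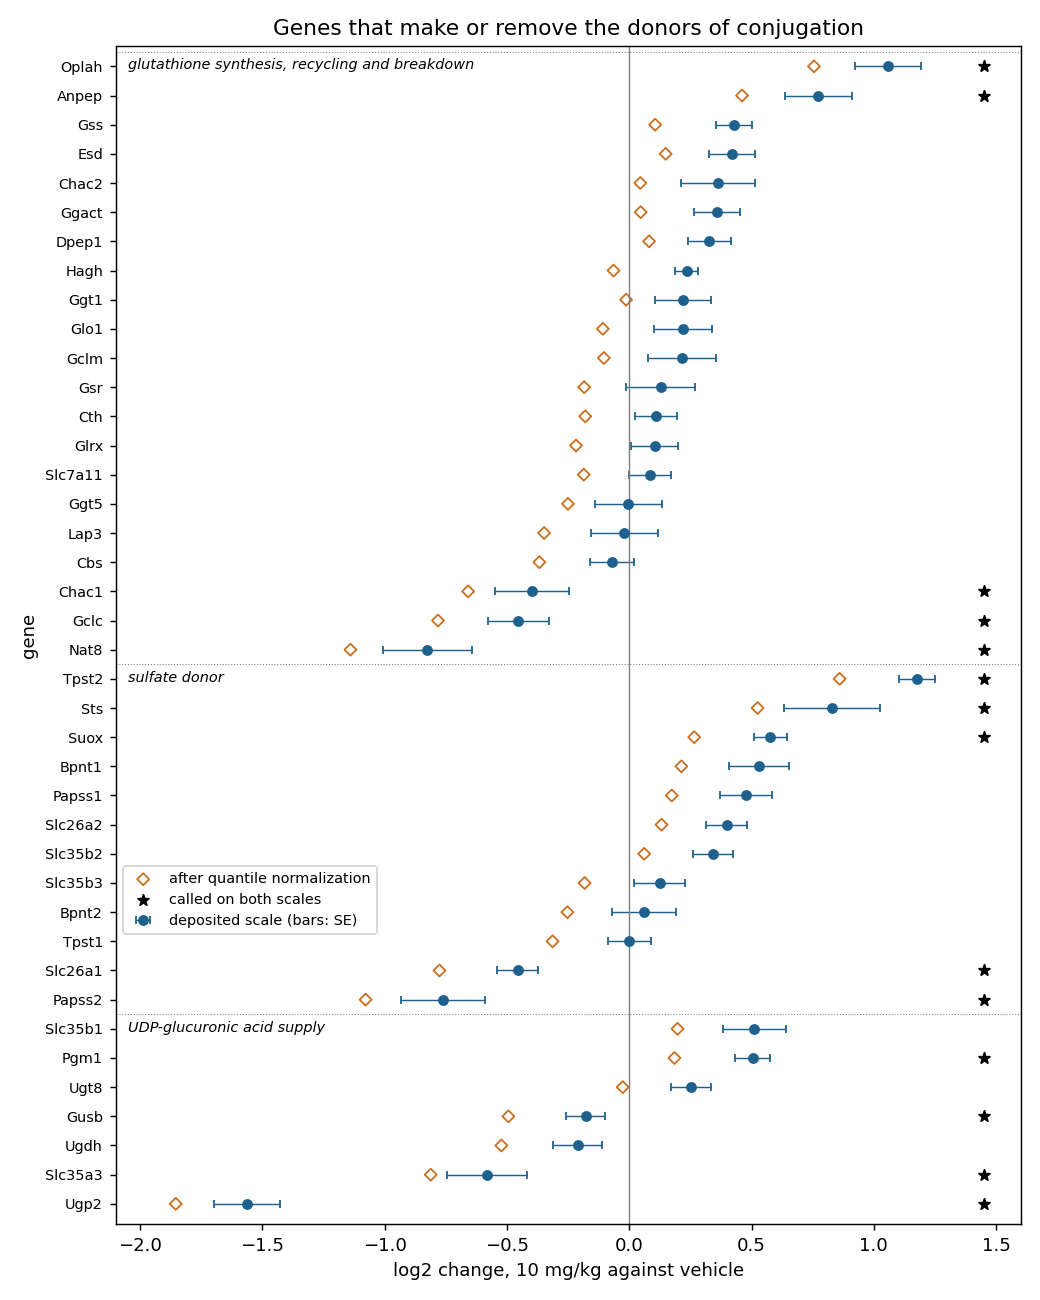
Log2 change at 10 mg/kg against vehicle for the measured genes of the 3 donor lists, on the deposited scale with its standard error and after quantile normalization, with a star where called on both scales. Ugp2 (-1.56), Nat8 (-0.83) and Papss2 (-0.76) lie farthest to the left of their lists, and Tpst2 (1.18) and Oplah (1.06) farthest to the right.

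Enzymes of other conjugations gave 2 rises and 3 falls among 15 genes at 10 mg/kg, or 13.3% and 20%, against 20.4% and 7.71% of all genes. The medium-chain acyl-CoA synthetase genes Acsm5 and Acsm3, which activate acids for coupling to glycine, rose by 2.17 ± 0.76 and 1.23 ± 0.22. The fallers were Glyat (-0.33), the glycine transferase itself, and the methyltransferase genes Nnmt (-0.41) and Gamt (-0.23). Ephx2, a soluble epoxide hydrolase, changed by 1.53 ± 0.56 and the methyltransferase gene Inmt by -0.67 ± 0.46, without a call.

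Genes listed as targets of the regulators of conjugation moved in both directions. Their shares are again to be read against the 20.4% and 7.71% of all genes that rose and fell. Among 18 Nrf2 targets 5 rose and 2 fell at 10 mg/kg, or 27.8% and 11.1%, near those shares, with a median change of 0.25, near the 0.26 of all genes. The largest rises were Me1 (3.09) and Cbr1 (2.12), a malic enzyme and a carbonyl reductase, followed by Pgd (1.01), Abcc3 (0.68) and Taldo1 (0.46), and the fallers were Gclc and the dim Cbr3. Nqo1 and Hmox1, classical Nrf2 targets, changed by -0.17 and -0.18 and were not called. Of 22 genes listed as targets of CAR and PXR 14 were measured, and whether each answers to these receptors was not tested. Of these 14, 5 rose and 5 fell, 35.7% each: Aldh1a1 (3.41), Ces2c (2.91), Por (1.56), Alas1 (1.04) and Cyp3a2 (0.51) rose. Cyp2c7 (-3.20), Cyp3a9 (-2.36), the dim Abcb1a (-0.94), Cyp3a18 (-0.73) and Cyp2b3 (-0.28) fell. Of 7 AhR targets 1 fell and 1 rose, 14.3% each: Cyp1a2 fell (-1.004 ± 0.11) and the dim Aldh3a1 rose (0.63).

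Among 21 genes listed as sex-dependent or growth hormone genes 2 rose and 6 fell at 10 mg/kg, Cyp2c7 and Cyp2c11 (-0.71) among the latter. These are 9.52% and 28.6%, where 20.4% and 7.71% of all genes did so. The list was counted whole, without a split by the direction of sex bias, so the count does not describe a male or female pattern. The genes of that list with the next largest changes, Bcl6 (-1.24 ± 0.74), Cyp2c12 (1.15 ± 0.62) and Cish (-1.04 ± 0.71), were not called. Of 24 regulator genes 3 rose and 2 fell, or 12.5% and 8.33%: Nr1i3, which encodes CAR, rose by 1.19 ± 0.19 (limma adjusted p = 1.2e-06), Keap1 by 0.59 and Nr1h3 by 0.52. Hnf4a fell by 0.46 ± 0.12 (limma adjusted p = 0.000797), and the dim Mafg by 0.29. Nfe2l2, which encodes Nrf2, changed by 0.61, Cebpb by 0.54 and Ppara by 0.45, without a call.

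The marker lists checked the tissue and what moved with dose, where at 10 mg/kg 20.4% of all genes rose and 7.71% fell. Of the 5 measured hepatocyte markers 0 rose and 1 fell at 10 mg/kg, and their summed level had a median of 15.17, 15.16, 15.19 and 15.14 (log2) from vehicle to 10 mg/kg. Of 8 Kupffer cell and macrophage markers 0 rose and 7 fell at 10 mg/kg. At 1 mg/kg 4 of the 8 fell, where 3.37% of all genes did. The summed level of all 8 lay at 10.51 to 11.40 on vehicle arrays, 10.84 to 11.50 at 0.1 mg/kg, 10.27 to 11.32 at 1 mg/kg and 9.86 to 10.78 at 10 mg/kg. Of the endothelium, stellate cell, bile duct cell and lymphocyte markers 0, 1, 2 and 0 rose and 1, 1, 1 and 0 fell, of 6, 8, 6 and 7 measured. Of the 7 lymphocyte markers 6 were below the array median in vehicle and at 10 mg/kg, and of the 6 bile duct markers 3 were. Control values moved with dose as well: the poly-A controls added before labelling averaged 5.57, 5.84, 6.22 and 6.56, and the difference between the 3' and 5' probe sets of beta-actin 2.78, 2.85, 3.11 and 3.22. The hybridisation controls averaged 9.34, 9.38, 9.51 and 9.58. The part of all these in the changes above was not tested, except in alternatives. Those put the poly-A level in the model or shifted arrays to the hybridisation controls.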

How the data were processed

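One Affymetrix array was run per rat, 40 in all, 10 per group. The deposited values are log2 signals per probe set, made by the authors with GCRMA, per the submitters' processing notes, which also name Partek; their versions were not given in the sources used here. The table held 31139 probe sets, of which 19167 carried 1 gene symbol, 474 several and 11498 none here, and 19088 symbols were matched to RefSeq through Entrez identifiers. Each of 13490 genes was read from its brightest single-symbol probe set.

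limma 3.58.1 in R 4.3.3 fitted 4 group means to all arrays (36 residual degrees of freedom), on the deposited values and again after quantile normalization; tests were two-sided with Benjamini-Hochberg adjustment over all genes, or over all 31042 non-control probe sets for shared and second ones. A gene was called at an adjusted p under 0.05 on both scales in 1 direction. The fit was tested on simulated data. The replicates are separate rats per the labels, and arrays give no read depth; their number limits the precision. Group values were given for called genes whose brighter group averaged at least log2 5, namely up to 8 in each direction at 10 mg/kg, 4 at 1 mg/kg, 3 per step between doses and every one at 0.1 mg/kg. Every other gene of the families was accounted for by its level, change or count. From each further list up to 4 genes with the largest changes were named by rule. Other genes of those lists were named after their values were seen. The genes and lists were chosen with earlier results of these data known. Alternatives changed the scaling, the probe set rule, the filter, the model, the covariates and the arrays used. Promoters came from RefSeq's GRCr8 (250 bases before the start; 47 of 54 genes matched), and protein sequences were not used here.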

Additional observations from a re-analysis of the deposited data

Results flagged for a closer look

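For 51 features (the 40 genes, the 8 shared probe sets and the 3 second probe sets) the highest and lowest of the 10 arrays of each group were set against the others with Dixon's test. An end array stood apart in 20 of 204 groups, and chance alone gives about 1 in 20.

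The widest gaps were those of Ugt2b. At 1 mg/kg its lowest array was at 2.98 and the next at 10.54, and at 10 mg/kg they were at 2.91 and 10.01. On the other Ugt2b probe set the same arrays were at 1.94 and 2.27, with the next lowest at 6.87 and 5.96.

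In vehicle, the lowest arrays were at 10.61 for Gstp3, 10.75 for Ugt2b35, 7.01 for the brightest probe set of Sult1c2 and Sult1c2a, and 1.63 for the second Sult2b1 probe set. At 0.1 mg/kg, the lowest array for Mgst1 was at 12.30 and the highest for Ugt2b15 at 10.56.

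At 1 mg/kg, the lowest arrays were at 12.48 for Mgst1, 9.76 for Sult1b1, 2.04 for Sult4a1, 1.95 for Ugt2b7 and 11.22 for the shared Gsta2 and Gsta5 probe set. The highest arrays of that dose were at 2.39 for Gstm6l and 1.77 for Sult1d1. At 10 mg/kg, the lowest arrays were at 10.54 for the dimmer Ugt1a probe set and 1.56 for Sult1d1, and the highest for Sult6b2 was at 2.85. The Ugt1a array at 10.54 was still above every vehicle array.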

How the results depend on the processing

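The count of called conjugation genes was 0 at 0.1 mg/kg, 4 at 1 mg/kg, 13 at 10 mg/kg, 1 in the step from 0.1 to 1 mg/kg and 9 in the step from 1 to 10 mg/kg. At 1 mg/kg it was 14 on the deposited scale alone, 11 after quantile normalization alone, 10 with arrays shifted to 1 median and 1 when tested against a 1.2-fold change. At 10 mg/kg it was 25 on the deposited scale alone, 20 after quantile normalization alone and 4 against 1.2-fold. In the lower step it was 15, 7 and 6 under those 3 scalings. It was 2 with arrays shifted to the hybridisation controls, with only the groups compared, with a trended and robust prior, without the 2 arrays of lowest upper quartile and without both arrays low in Ugt2b. It was 3 with array weights, and 0 among genes at log2 5 or more, against 1.2-fold and with the 1 mg/kg group cut to arrays 1 to 4. In the upper step it was 13 on the deposited scale alone, 11 after quantile normalization alone, 5 among genes at log2 5 or more and with that group cut to those arrays, and 1 against 1.2-fold. Leaving out 1 array at a time gave 0 to 0 at 0.1 mg/kg, 2 to 5 at 1 mg/kg, 11 to 15 at 10 mg/kg, 1 to 3 in the lower step and 8 to 10 in the upper. Leaving out the 2 arrays of lowest upper quartile and both arrays low in Ugt2b were chosen after seeing the data. The cause of these differences was not tested. The number of all genes called under each alternative is not given beside these counts. They therefore do not show whether the conjugation genes moved more or less than other genes.

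The next counts cover only the called genes with group values above, Ugt2b and the called shared probe sets. A call needs 1 direction on both scales, so the deposited or quantile-normalized scale alone could not reverse one. Genes outside these counts, such as Sult1b1 and Sult1e1 at 10 mg/kg, changed sign after quantile normalization. Of the counted values under all alternatives, 1605 kept their direction and side of the threshold, 106 lost the call, 8 gained one and 0 reversed. Many of these alternatives left out 1 array of a group not compared. Those cannot alter the change itself, only the spread and the adjusted p. The calls of Gstm5 at 10 mg/kg, Gstm7 at 1 and 10 mg/kg and Gstp3 at 10 mg/kg held in all 57 alternatives. Those of Ugt2b1 at 10 mg/kg and in the upper step did too. At 10 mg/kg the calls of Gsta3, Gstm1, Sult1a1, Sult2a6 and Ugt2b35 were lost against 1.2-fold. With the replicate number as a block, 1 gene rose and 2 fell at 1 mg/kg (Mgst3 lost its call), 6 rose and 7 fell at 10 mg/kg, and 0 rose and 1 fell and 4 rose and 5 fell in the 2 steps. Nothing in the labels pairs rats of different groups by number. Arrays with the same number deviated together with a mean r of 0.047 over 60 pairs. For different numbers it was -0.0047 over 540 pairs. Such means cannot exclude a factor shared by number. Signals under log2 5 limit what can be read for 14 of the 40 genes.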
